A study of Rattus norvegicus with 6 samples.

Results

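The interleukins, their receptors and the related cytokines of the LIF, oncostatin M and colony-stimulating factor families were followed on kidney arrays of diabetic rats with and without Qishen Yiqi dripping pill (QYDP), a compound of 4 herbs. Members were taken by symbol: every gene whose rat symbol is Il followed by a digit, with Lif, Lifr, Osm, Osmr, Csf1, Csf2, Csf3, Csf2rb and Csf3r. This gave 84 of the 18166 genes on the arrays that had a row with a single gene symbol, 41 of them receptor chains and 43 ligands, antagonists, a binding protein or Il16. Csf2ra was not analysed here, and neither was Il4i1, whose row also names Nup62. Each of 6 Affymetrix Rat Gene 2.0 ST arrays read the RNA of 1 rat, 3 treated with QYDP (HQYDP) and 3 untreated (DM), to ask what QYDP changed in the diabetic kidney. All 6 were Sprague Dawley rats aged 17 weeks by their labels and had been given 60 mg/kg streptozotocin, a toxin that destroys insulin-producing β cells, so both groups were diabetic by toxin. Gavage was with QYDP, 300 mg/kg/day over 8 weeks, in the HQYDP rats and with saline in the others; dose and duration come from the methods, since the labels give none. The labels give the tissue as kidney, while the methods of the study name the cortex. Only the DM arrays, all 3, carry the word re-analysis in their labels. If that marks a separate run, its effect and that of QYDP cannot be told apart.

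Interleukins are secreted signals between leukocytes, epithelium and stroma. Most act through paired receptor chains that carry no enzyme of their own and rely on Janus kinases (JAK), which phosphorylate STAT transcription factors. IL-6, IL-11, LIF and oncostatin M share the signal chain gp130, encoded by Il6st, and switch on acute phase genes mainly through STAT3. The IL-1 and IL-17 families instead signal through adaptors to NF-κB. In the kidney, tubular cells, endothelium, resident macrophages and infiltrating leukocytes can all produce or receive these signals.

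All values are log2 array values, as deposited. A gene counted as lower or higher when it changed by more than 1.5-fold with a p under 0.05 before adjustment, the thresholds that the study used, in limma's two-sided moderated test over all genes. Of all 18166 genes, 1.82% were lower in HQYDP than in DM at these thresholds, 1.46% were higher and 3.28% were either. The whole comparison held 3 genes (0.0165%) with an adjusted p under 0.05, none of them a member. With 3 rats against 3 the smallest two-sided p of an exact permutation test is 0.1, so single genes could not be tested that way. The proximal tubule markers, among them Slc34a1 and Lrp2, had mean log2 values of 10.40 to 10.87 in the 6 arrays. DM replicate 2 lay at 39.5 on the first principal component of the gene values and DM replicate 1 at 17.9, whereas DM replicate 3 lay at -14.9, within the range of the HQYDP arrays, -16.2 to -10.6.

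At the study thresholds 5 of the 84 members were lower with QYDP and none was higher. The 5 were the oncostatin M receptor Osmr, the IL-1 receptor antagonist Il1rn, the IL-10 family cytokines Il24 and Il19, and the gp130 cytokine Lif. The count of 5 of 84 stands beside 1.82% of all genes. None of the 5 had an adjusted p under 0.05, and the lowest adjusted p among members was 0.228, for Il1rn. By the unadjusted p alone 12 members were lower and 2 higher, beside 3.75% and 3.62% of all genes. The study itself names Il1rn and Lif among its selected genes, which it chose on these same arrays, so the call of these 2 genes is not independent evidence. The methods' t-test, named in the study's general statistics, passed Il1rn, Lif and Osmr, beside 0.655% of all genes lower and 0.875% higher in that test, and no member was higher. These are values from whole tissue, in which fewer cells of a type and less RNA per cell cannot be told apart.

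**Figure D1:**
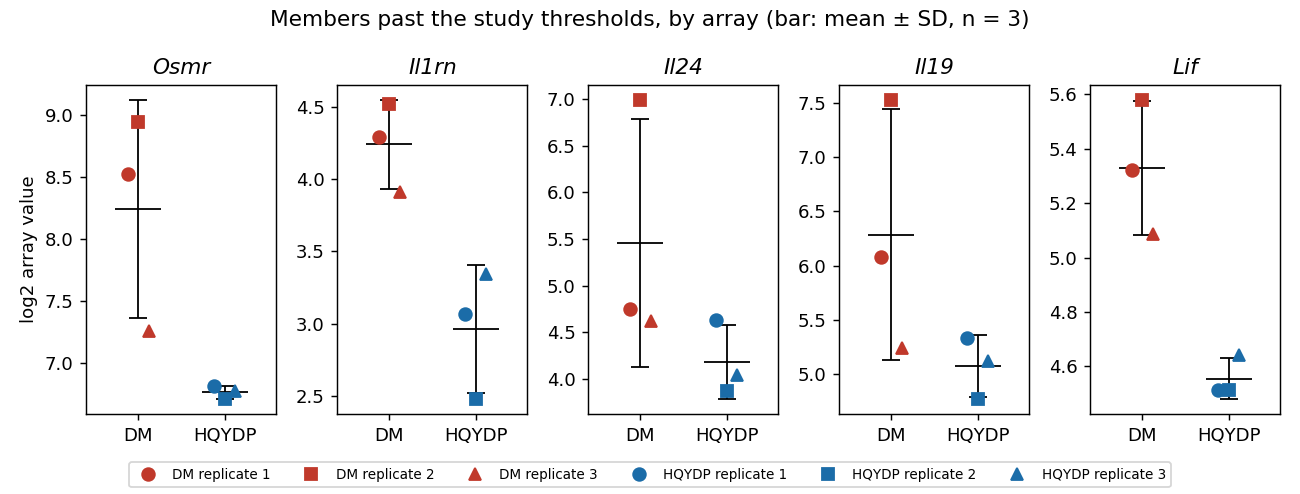
Log2 array value (vertical axis, a separate scale per panel) of the 5 members that passed the study thresholds, with 1 point per array and a black bar for the mean ± SD of 3 arrays per group. In Osmr, Il1rn and Lif every HQYDP array lies below every DM array, and in all 5 panels DM replicate 2 is the highest array and DM replicate 3 the lowest of the DM arrays.

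Osmr encodes the chain that pairs with gp130 to receive oncostatin M and with Il31ra to receive IL-31. Its log2 value was 8.52, 8.95 and 7.25 in DM replicates 1 to 3 and 6.81, 6.70 and 6.77 in HQYDP replicates 1 to 3. No HQYDP array reached the lowest DM array, and the HQYDP arrays were close to each other while the DM arrays spread widely. The DM mean was 8.24 ± 0.88 (SD, n = 3) and the HQYDP mean 6.76 ± 0.05 (SD, n = 3). The log2 difference of -1.48 (standard error 0.36, adjusted p = 0.3) corresponds to a 2.79-fold lower value. It ranged from -1.98 without DM replicate 3 to -1.13 without DM replicate 2 when single arrays were left out, and passed the study thresholds each time.

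Il1rn encodes the antagonist that occupies the IL-1 receptor without signaling. Its log2 value was 4.30, 4.52 and 3.91 in the DM arrays and 3.07, 2.48 and 3.35 in the HQYDP arrays. The groups did not overlap, with the highest HQYDP array below the lowest DM array. The DM mean was 4.24 ± 0.31 (SD, n = 3) and the HQYDP mean 2.96 ± 0.44 (SD, n = 3), which differed by -1.28 on the log2 scale (standard error 0.24, adjusted p = 0.228). The gene was dim in both groups, since its mean of 3.60 lay at percentile 15.7 of all genes tested.

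Lif encodes leukemia inhibitory factor, a gp130 cytokine that tubular epithelium and stroma can release. Its log2 value was 5.32, 5.58 and 5.09 in DM and 4.51, 4.51 and 4.64 in HQYDP, and the groups did not overlap. The log2 difference was -0.77 (standard error 0.17, adjusted p = 0.253). It lay between -0.90 and -0.65 when any 1 array was left out, past the study thresholds each time. Lif did not pass a rule of more than 2-fold.

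Il19 and Il24 encode IL-10 family cytokines that signal through the receptor chains Il20ra and Il20rb, and Il24 also through Il22ra1 with Il20rb. Il19 had log2 values of 6.08, 7.53 and 5.24 in DM and 5.33, 4.77 and 5.12 in HQYDP, and Il24 had 4.76, 6.99 and 4.62 in DM and 4.63, 3.87 and 4.05 in HQYDP. In both genes DM replicate 2 stood far above the other arrays, and the groups overlapped through DM replicate 3 and HQYDP replicate 1. The log2 difference of Il19 was -1.21 (standard error 0.46, adjusted p = 0.579) and that of Il24 was -1.27 (standard error 0.54, adjusted p = 0.636). Both calls were lost without DM replicate 2, where the log2 differences were -0.59 for Il19 and -0.51 for Il24. They were also lost without HQYDP replicate 2, at -1.06 and -1.12, and that of Il24 without HQYDP replicate 3, at -1.20. Neither gene passed the methods' t-test.

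Il24, Il20, Il19 and Il10 lie in this order along chromosome 13 in the RefSeq annotation of GRCr8. Il10, an anti-inflammatory cytokine, had a log2 difference of -0.06 (95% interval -0.41 to 0.28), and Il20, a cytokine of epithelium, had -0.04 (95% interval -0.35 to 0.27), so the 2 genes beside Il19 and Il24 did not pass the test. Whether these differences differ from those of Il19 and Il24 was not tested. In Il20 the 6 arrays stayed between 3.55 and 3.68, with DM replicate 2 at 3.68.

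The promoters of Il19, Il24 and Osmr are shown because these members were lower and their sequences hold a motif of the factors that gp130 and IL-10 family receptors or stress kinases activate. They are credited to RefSeq, build GRCr8, and run from 250 bases before the transcript start to 50 bases after it, 5′ to 3′ on the strand of the gene. Capitals mark the searched motifs, read on both strands: TTCNNNGAA, the core of a STAT site, and TGANTCA, the core of an AP-1 site. The windows are chr13:44958665-44958964, minus strand, for Il19, chr13:44910711-44911010, minus strand, for Il24 and chr2:57688512-57688811, minus strand, for Osmr.
Il19: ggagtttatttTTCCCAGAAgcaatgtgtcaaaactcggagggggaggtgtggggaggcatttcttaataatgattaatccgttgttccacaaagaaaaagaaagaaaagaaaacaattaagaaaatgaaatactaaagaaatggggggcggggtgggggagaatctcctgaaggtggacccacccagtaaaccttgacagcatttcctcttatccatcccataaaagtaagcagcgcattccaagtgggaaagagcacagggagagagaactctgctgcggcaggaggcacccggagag
Il24: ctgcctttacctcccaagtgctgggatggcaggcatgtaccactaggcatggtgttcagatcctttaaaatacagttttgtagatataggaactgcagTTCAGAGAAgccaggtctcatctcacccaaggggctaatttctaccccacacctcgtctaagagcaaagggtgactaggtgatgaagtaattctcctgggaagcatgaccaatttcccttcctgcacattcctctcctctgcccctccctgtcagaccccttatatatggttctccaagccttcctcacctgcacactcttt
Osmr: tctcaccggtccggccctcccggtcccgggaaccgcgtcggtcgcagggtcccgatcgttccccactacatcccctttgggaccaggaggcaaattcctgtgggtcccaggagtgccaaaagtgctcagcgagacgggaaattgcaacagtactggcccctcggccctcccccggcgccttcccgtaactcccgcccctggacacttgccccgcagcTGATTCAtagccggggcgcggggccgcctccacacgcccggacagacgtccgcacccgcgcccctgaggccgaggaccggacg
The STAT motif began at -239 from the transcript start in Il19 and at -152 in Il24, and the AP-1 motif at -33 in Osmr. The window of Il1rn held neither motif. The 2 motifs did not overlap each other in these windows. Of 33469 RefSeq promoters of the same length, 8.87% held the STAT motif and 7.33% the AP-1 motif. Among the 63 members with a promoter in the table, 8 held the STAT motif (Csf2, Il10rb, Il12rb2, Il18r1, Il19, Il24, Il36b and Il36g) and 7 the AP-1 motif (Il11, Il15, Il16, Il18, Il1a, Il9 and Osmr). A member counted once if any of its promoters held the motif, whereas the percentages are shares of promoters. Lif had no promoter among those searched. A match is a run of letters and was not tested as a binding site.

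**Figure D2:**
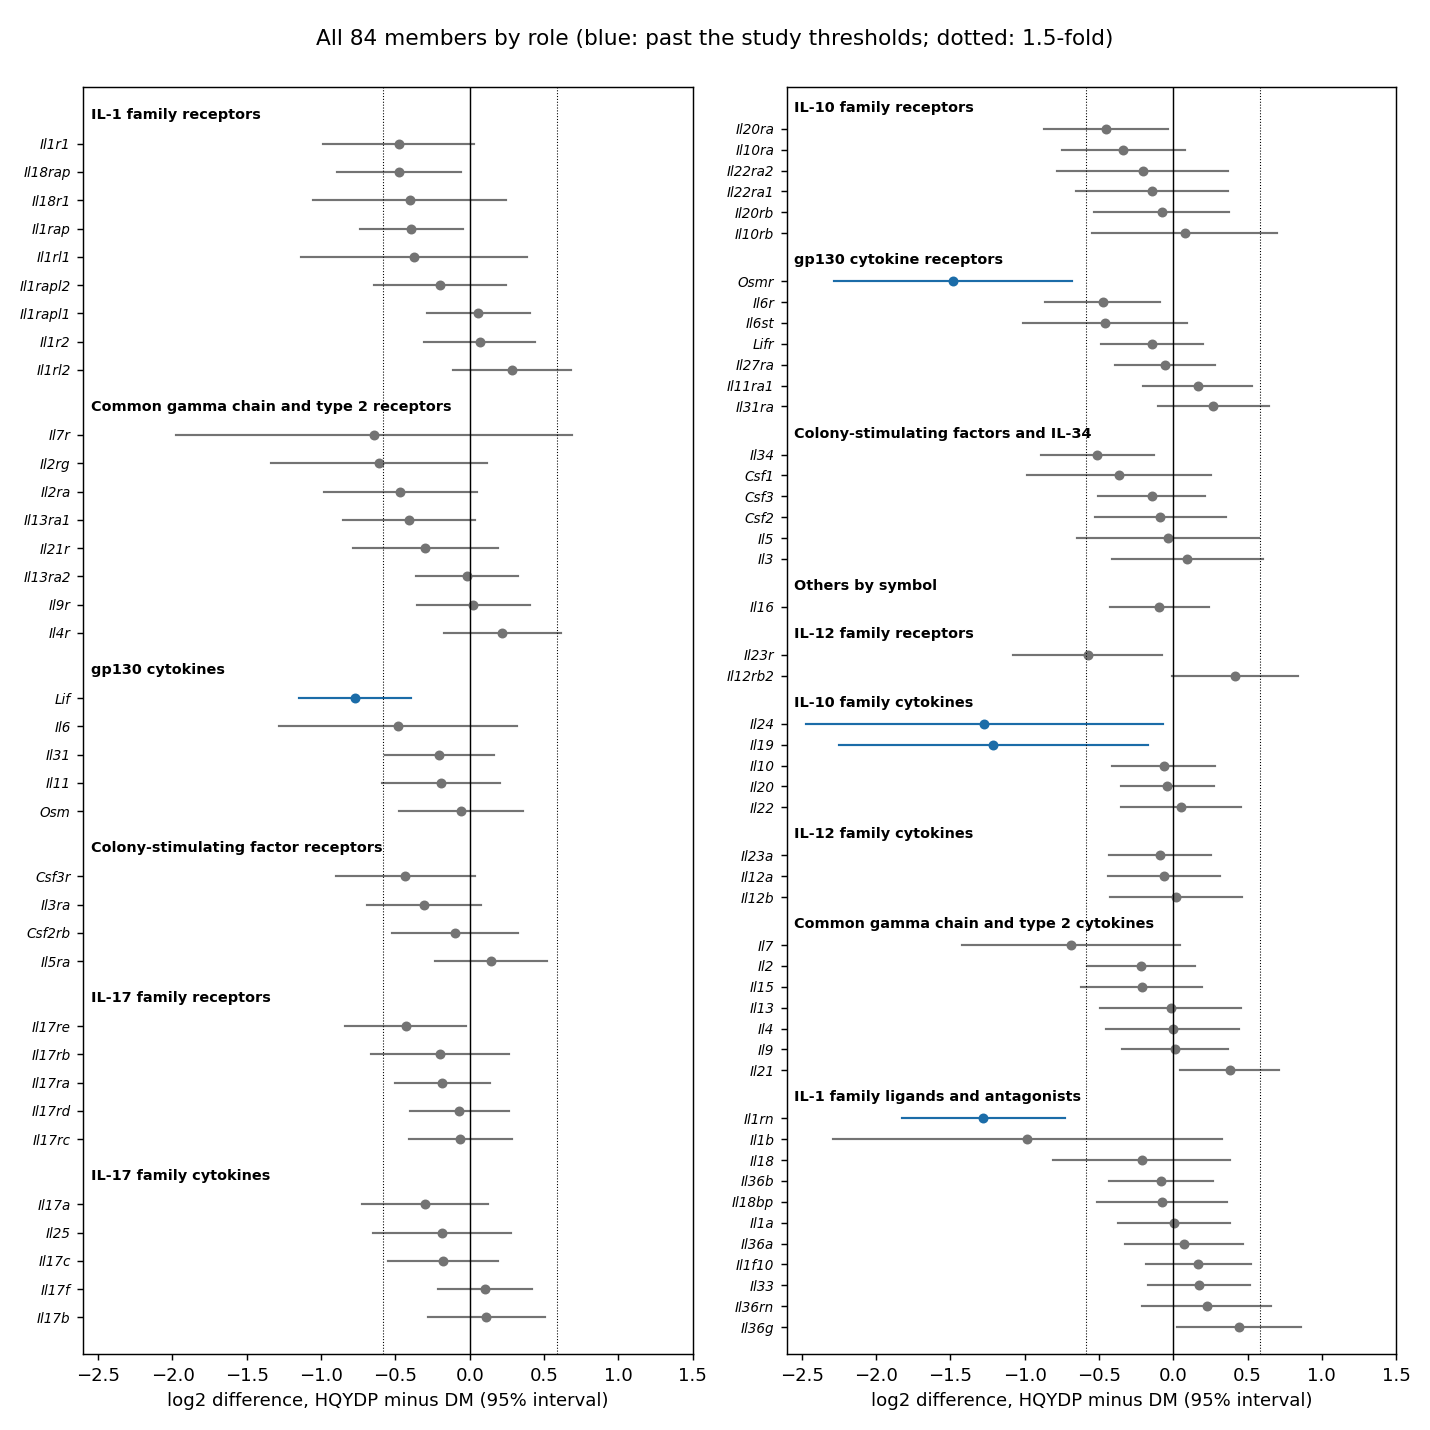
Log2 difference, HQYDP minus DM (horizontal axis), of all 84 members in 15 role groups, with points for the estimate and lines for the 95% interval from limma. The 5 blue members passed the study thresholds, all on the lower side, the dotted lines mark 1.5-fold, and 61 of the 84 points lie below 0.

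Over all 84 members the median log2 difference was -0.14, beside -0.0017 over all genes, and 61 members (72.6%) had a negative difference, beside 50.3% of all genes. The differences ran from -1.48 for Osmr to 0.45 for Il36g. The median value of the members was 4.51, 4.49 and 4.45 in the HQYDP arrays and 4.73, 4.95 and 4.53 in the DM arrays, so DM replicate 3 lay close to the HQYDP arrays here too. Every HQYDP array lay below every DM array in 11 members and above in 3, beside 6.01% and 6.08% of all genes. DM replicate 2 was the highest of the 6 arrays in 27 members (32.1%), beside 20.7% of all genes.

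Most members were dim on these arrays. Olfactory receptors, whose main site is the nose, were used as a mark of low signal, and the 95th percentile of the mean value of 68 such genes was 5.26. Of the members 24 lay above it, among them Osmr, Il19, the LIF receptor Lifr and Il33, and 60 lay below it, among them Il1rn, Lif and Il24. Il19 and Il2rg lay above it only through the DM arrays, with HQYDP means of 5.07 and 5.10, and Il12rb2 only through the HQYDP arrays, with a DM mean of 5.20. Of the 5 lower members Osmr alone had both group means above it.

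**Figure D3:**
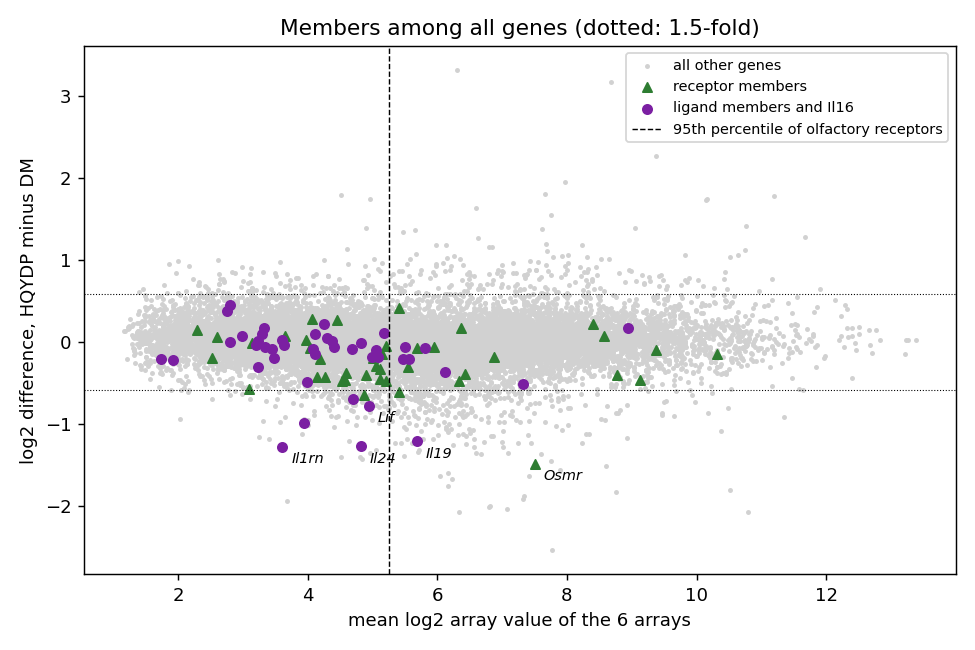
Log2 difference, HQYDP minus DM (vertical axis), against the mean log2 value of the 6 arrays (horizontal axis) for 84 members, as purple points for ligands and Il16 and green triangles for receptors, over all genes in grey. The dashed line marks 5.26, the 95th percentile of olfactory receptors, and of the 5 labelled members Osmr and Il19 lie to its right, Il19 only through its DM arrays.

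Among the gp130 cytokines and IL-31, which Osmr receives with Il31ra, Lif was lower at the study thresholds and the other 4 members did not pass. Cntf, a further gp130 cytokine that is no member by symbol, was also lower, at 5.70, 6.56 and 5.44 in DM and 5.44, 4.93 and 5.29 in HQYDP, with overlap between the groups and a log2 difference of -0.68 (adjusted p = 0.611). That call was lost without DM replicate 2, HQYDP replicate 2 or HQYDP replicate 3, and with the methods' t-test. Ctf1 and Clcf1, gp130 cytokines that are also no members, had 0.32 and -0.36. Cntfr, the receptor chain for CNTF, had 0.49 (adjusted p = 0.669), and none of Ctf1, Clcf1 and Cntfr passed. Oncostatin M, the ligand of Osmr, had log2 values of 5.76, 5.18 and 5.64 in DM and 5.32, 5.53 and 5.57 in HQYDP for its gene Osm. The arrays of the groups overlapped throughout, with a log2 difference of -0.06 (95% interval -0.47 to 0.36). Il6, the founding cytokine of the family, stood at 5.22 in DM replicate 2 and between 3.55 and 3.94 in the other 5 arrays. Its log2 difference of -0.48 (adjusted p = 0.879) became 0.01 without DM replicate 2. Il11 and Il31 had -0.19 and -0.20.

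Among the 7 measured receptor chains for these cytokines and IL-27, Osmr was lower and no other chain passed. Il6st, the shared gp130 chain, had 9.37, 9.91 and 8.82 in DM and 8.95, 8.89 and 8.87 in HQYDP, where DM replicate 3 lay below the HQYDP arrays. Its log2 difference was -0.46 (95% interval -1.01 to 0.09). Il6r, the IL-6 binding chain, had a log2 difference of -0.47 (adjusted p = 0.547) without overlap between the groups, at 5.44, 5.69 and 5.20 in DM and 4.87, 4.91 and 5.12 in HQYDP, but the change was less than 1.5-fold. Lifr, the receptor of LIF, had -0.14 (95% interval -0.49 to 0.20), with all arrays between 10.07 and 10.51. Lifr and Osmr are both on chromosome 2 in GRCr8. Il31ra, Il11ra1 and Il27ra, receptor chains for IL-31, IL-11 and IL-27, had 0.27, 0.17 and -0.05, and none passed.

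**Figure D4:**
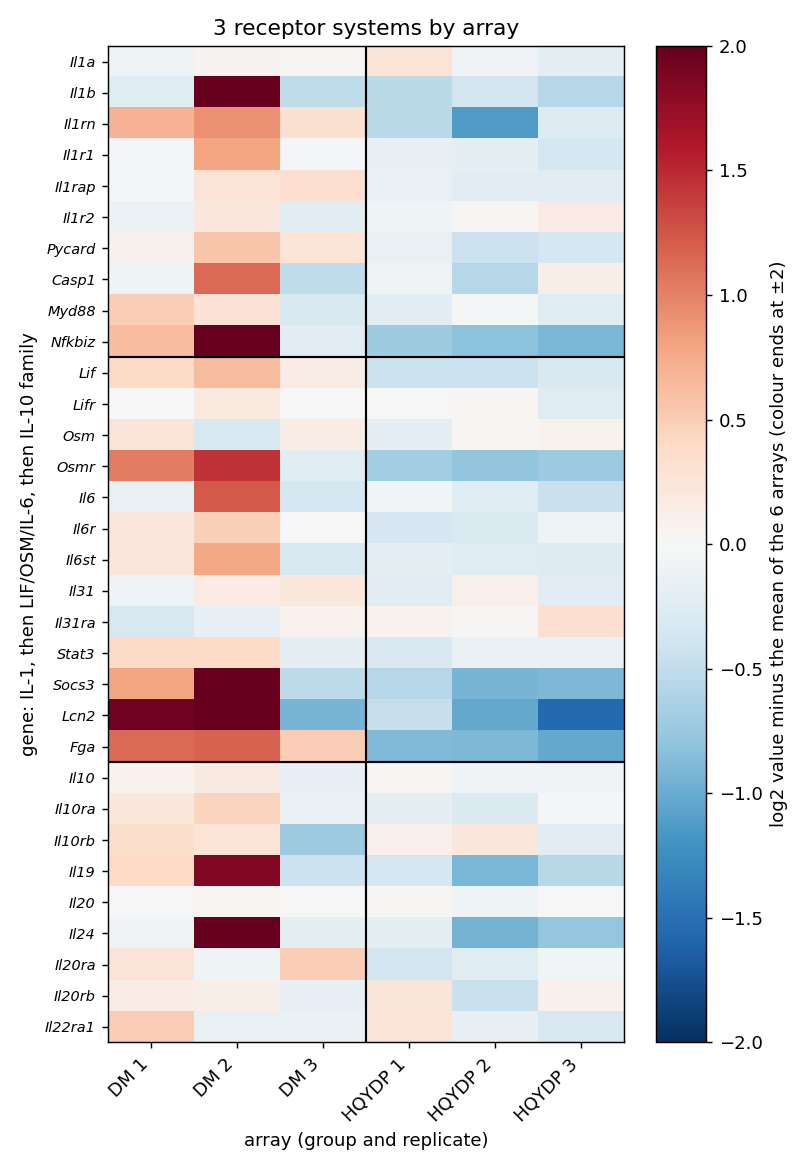
Log2 value of each gene minus its mean over the 6 arrays (colour, ending at ±2) for genes of the IL-1, the LIF, oncostatin M and IL-6, and the IL-10 family systems, with the DM arrays left of the line and the HQYDP arrays right of it. Osmr, Lif, Socs3, Lcn2 and Fga are low in the HQYDP columns, Il1b, Il6, Il19 and Il24 are high mainly in the column of DM replicate 2, and Lifr, Osm, Il10 and Il20 are pale throughout.

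Genes that can lie downstream of gp130 were read from a list of 19 measured acute phase and STAT3 target genes. They were chosen with earlier results of these data known, and whether gp130 drove their values was not tested. Of the 19 genes, 10 were lower at the study thresholds and none was higher, beside 1.82% and 1.46% of all genes. The 10 were Fgb, Lcn2, Fga, Socs3, Cp, Fgg, Lbp, Junb, Timp1 and Icam1. Fgb and Fga, chains of fibrinogen, had log2 differences of -2.08 and -1.88, and Fga had an adjusted p = 0.0326 from limma. Fga, Fgb, Fgg and Icam1 are among the genes that the study selected on these arrays, so their calls are not independent evidence. Lcn2, the iron-binding protein lipocalin 2, had 9.02, 9.11 and 6.15 in DM and 6.61, 6.04 and 5.51 in HQYDP, a log2 difference of -2.04 (adjusted p = 0.493). Its groups overlapped, since DM replicate 3 lay below HQYDP replicate 1. Socs3, the feedback inhibitor of gp130 signaling, had 6.96, 8.30 and 5.65 in DM and 5.60, 5.24 and 5.27 in HQYDP, a log2 difference of -1.60 (adjusted p = 0.483). Cp, the copper carrier ceruloplasmin, had -1.51, while Hp, haptoglobin, had 0.00. Of the list, 8 to 15 genes were lower when any 1 array was left out. The count was 8 without DM replicate 2 and 15 without DM replicate 3, beside 1.21% and 4.02% of all genes lower. With the methods' t-test 4 were lower, namely the study-selected Fga, Fgb, Fgg and Icam1, beside 0.655% of all genes. The calls of Lcn2 and Timp1 were lost without DM replicate 1 or DM replicate 2, and that of Timp1 also without any 1 HQYDP array. The list median was -1.19, beside -0.0017 over all genes.

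The JAK kinases and STAT factors themselves did not pass. None of 9 measured was lower or higher, and Stat3 had the largest difference, -0.39 (95% interval -0.81 to 0.03). Of 16 inhibitors of this pathway Socs3 alone was lower, and Socs1 had -0.26. Over all 89 measured pathway genes, 14 were lower and 1 was higher, beside 1.82% and 1.46% of all genes. Prlr, the prolactin receptor of the same receptor class, was the higher one, at 7.30, 6.94 and 7.19 in DM and 8.87, 8.19 and 7.70 in HQYDP, a log2 difference of 1.11 (adjusted p = 0.3).

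In the IL-1 family, the antagonist was lower while the agonists did not pass. Il1b, which encodes the secreted agonist IL-1β, had 3.69, 6.17 and 3.42 in DM and 3.40, 3.57 and 3.36 in HQYDP. DM replicate 2 alone stood apart, and the log2 difference of -0.98 (95% interval -2.29 to 0.33) became -0.11 without it. Il1a, which encodes the other agonist, had 0.01 (95% interval -0.37 to 0.38). Il33, an alarmin of stroma and endothelium, stayed between 8.75 and 9.07 in all arrays, with a log2 difference of 0.17. Il18, which caspase 1 matures, had -0.21, and its antagonist Il18bp had -0.08. Il36a, Il36b, Il36rn and Il1f10, relatives of IL-1, had 0.07, -0.08, 0.22 and 0.17. Il36g, at percentile 7.23 of all genes tested, had 0.45 (adjusted p = 0.63), below 1.5-fold.

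No IL-1 family receptor of 9 passed the study thresholds. Il1r1, the signaling receptor that the antagonist occupies, had 6.31, 7.11 and 6.28 in DM and 6.16, 6.13 and 5.98 in HQYDP, without overlap between the groups. Its log2 difference was -0.48 (95% interval -0.99 to 0.03). Il1rap, the accessory chain of Il1r1, had -0.39 (adjusted p = 0.595) and Il18rap, the accessory chain for IL-18, had -0.48 (adjusted p = 0.588), both without overlap and both below 1.5-fold. The decoy receptor Il1r2 had 0.07, and Il1rl1, the receptor of IL-33, had -0.38, with 5.70 in DM replicate 2 and 4.14 to 4.57 in the other arrays. Il18r1, the IL-18 receptor, had -0.40, Il1rl2, the IL-36 receptor, 0.28, and the brain accessory proteins Il1rapl1 and Il1rapl2 0.06 and -0.20.

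Of 25 measured genes between the IL-1 and IL-17 receptors and NF-κB, 1 was lower, Nfkbiz, and none was higher, beside 1.82% of all genes lower, and with the methods' t-test 0 of the 25 were lower. Nfkbiz, an NF-κB cofactor induced by IL-1 and IL-17, had 6.67, 8.10 and 5.81 in DM and 5.34, 5.23 and 5.13 in HQYDP, a log2 difference of -1.63 (adjusted p = 0.401). Its groups did not overlap. Of 7 measured genes that process IL-1 and IL-18, Pycard, the inflammasome adaptor, was lower with -0.61 (adjusted p = 0.411), also one of the genes that the study selected. This call was lost without DM replicate 2 (-0.49) or HQYDP replicate 2 (-0.55), with array weights (-0.53) and with quantile normalization (-0.56). Of the 25 signaling genes 5 were lower without DM replicate 1 and 5 without DM replicate 3. Without DM replicate 3, 4.02% of all genes were lower. Without DM replicate 1, 666 of all 18166 genes passed in either direction. Casp1 and Nlrp3 had -0.36 and -0.55 and did not pass.

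The receptors of Il19 and Il24 did not pass. Il20ra had 5.37, 5.02 and 5.60 in DM and 4.72, 4.86 and 5.06 in HQYDP, with a log2 difference of -0.45 (adjusted p = 0.622), below 1.5-fold, and the groups overlapped between DM replicate 2 and HQYDP replicate 3. It passed the thresholds only when DM replicate 2 was left out. Il20rb had -0.08 (95% interval -0.53 to 0.38) and Il22ra1 had -0.14 (95% interval -0.65 to 0.37). Il10ra and Il10rb, the receptor chains of IL-10, had -0.33 and 0.08. Il22, a cytokine that acts on epithelium, had 0.05 and its soluble binding protein Il22ra2 -0.21.

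Among the colony-stimulating factors and IL-34, none of 6 passed. Il34, a tubular ligand of the macrophage receptor Csf1r, had 7.73, 7.66 and 7.35 in DM and 7.12, 6.87 and 7.21 in HQYDP, with no overlap between the groups. Its log2 difference of -0.51 (adjusted p = 0.493) was below 1.5-fold. Csf1, the other ligand, had -0.36 (95% interval -0.98 to 0.26), with 6.56, 6.72 and 5.62 in DM and 6.21, 5.72 and 5.88 in HQYDP. Csf1r itself was lower, with 7.84, 8.11 and 6.78 in DM and 6.85, 6.56 and 6.80 in HQYDP, a log2 difference of -0.84 (adjusted p = 0.536). Its call was lost without DM replicate 1, DM replicate 2 or HQYDP replicate 2, and with the methods' t-test. Csf2rb, the shared chain for GM-CSF, IL-3 and IL-5, had -0.10 and Csf3r, the receptor of G-CSF, -0.43, and neither passed. Il3ra and Il5ra, the private chains for IL-3 and IL-5, had -0.31 and 0.14, and the cytokines Csf2, Csf3, Il3 and Il5 lay between -0.15 and 0.10.

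Cytokines and receptors of lymphocytes did not pass either. Il7, a stromal survival factor for lymphocytes, had 4.97, 5.87 and 4.30 in DM and 4.37, 4.22 and 4.48 in HQYDP, a log2 difference of -0.69 (95% interval -1.42 to 0.04). Its receptor Il7r stood at 6.92 in DM replicate 2 and at 3.96 to 4.79 in the others, and its log2 difference of -0.64 became 0.22 without that array. Il2rg, the common γ chain, had -0.61 (95% interval -1.34 to 0.11). The T cell growth factor Il2, at percentile 1.87 of all genes tested, had -0.22, and Il21 had 0.38 (adjusted p = 0.592), below 1.5-fold, at percentile 6.79. Il4r and Il13ra1, chains for IL-4 and IL-13, had 0.22 and -0.41, and Il2ra, the α chain for IL-2, had -0.47. The cytokines Il4, Il9, Il13 and Il15 lay between -0.21 and 0.01, and the receptors Il9r and Il21r had 0.03 and -0.30. Il13ra1 had a second row on the array, with a log2 difference of -0.42, and a dimmer second row of Il13ra2 had -0.29, beside -0.02 for the row used.

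The IL-12 and IL-17 families held no gene past the study thresholds. Il23r, a chain of the IL-23 receptor, had -0.58 (adjusted p = 0.587), just under 1.5-fold, and Il12rb2 had 0.41 (adjusted p = 0.685). The cytokines Il12a, Il12b and Il23a had -0.06, 0.02 and -0.09. Il17a, of T helper cells, had -0.30 (95% interval -0.73 to 0.12), and the other 4 measured cytokines of its family lay between -0.19 and 0.11. Il17re, the receptor of IL-17C, had -0.43 (adjusted p = 0.634), below 1.5-fold, and the other 4 IL-17 receptors, which include Il17ra, lay between -0.20 and -0.06. Il16, a T cell attractant, had -0.09.

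Of 12 macrophage markers 7 were lower at the study thresholds, beside 1.82% of all genes. Among them were Cd14 with -1.06, Lyz2 with -1.08 and Mrc1 with -1.19. C1qc, Aif1, Msr1 and Cd163 had -0.50, -0.39, -0.27 and -0.15 and did not pass, nor did Marco with 0.21. The count of lower markers was 10 without DM replicate 3, beside 4.02% of all genes. It was 3 without DM replicate 1 or HQYDP replicate 3, 2 without DM replicate 2 or HQYDP replicate 2, and 0 with the methods' t-test. The mean log2 value of the macrophage list was 5.70 to 6.09 in the HQYDP arrays and 6.61, 6.99 and 5.93 in the DM arrays. That is the order over the DM arrays of the 5 lower members, but it was not particular to macrophages. The T cell, B cell, NK cell, mast cell, fibroblast, endothelium and thick ascending limb lists took it too, as did the first principal component. The neutrophil, proximal tubule, collecting duct and podocyte lists did not. In the T cell list the DM values were 5.28, 5.57 and 4.94, and in the fibroblast list 6.51, 7.57 and 6.42. Fibroblast markers had 6.01 to 6.40 in HQYDP and 6.42 to 7.57 in DM, and 2 of 6 were lower, beside 1.82% of all genes. None was lower without DM replicate 2, without HQYDP replicate 2 or with the methods' t-test. There were 4 lower without DM replicate 1, where 666 of all 18166 genes passed in either direction. Without DM replicate 3 there were also 4, beside 4.02% of all genes lower. Of 10 T cell markers Cd4, which rat macrophages also carry, was lower. Cd4 did not pass without DM replicate 1 or DM replicate 2 or with the methods' t-test. Cd3e, which defines T cells, had 4.05 ± 0.42 in HQYDP and 4.37 ± 0.22 in DM (SD, n = 3), under the 5.26 of olfactory receptors. Cd5, with a mean of 5.72, had -0.38 without overlap between the groups, below 1.5-fold. Of the 10 markers 9 had a negative difference, beside 50.3% of all genes. None of 4 B cell and 6 NK cell markers was lower or higher, and of 8 neutrophil markers Cxcr2 was lower, though not with the methods' t-test. Every marker of these 3 lists had a mean under 5.26, Cxcr2 at 3.64, so they say little about those cells. Of the tubular lists, 2 of 4 thick ascending limb markers were higher, beside 1.46% of all genes. These were Umod with 0.65 and Cldn16 with 0.73, and neither passed without DM replicate 3. None of 7 proximal tubule and 4 collecting duct markers was lower or higher with every array kept. The 3 measured podocyte markers, Nphs1, Podxl and Wt1, had 0.49, 0.47 and 0.39, below 1.5-fold. In all 3 every HQYDP array lay above every DM array, beside 6.08% of all genes. Their unadjusted p-values from limma were under 0.05, beside 3.62% of all genes higher by that rule. The neutrophil list had mean log2 values of 3.67 to 3.91 in HQYDP and 3.95 to 4.07 in DM. The part of these cells in the lower values of Osmr, Il1rn, Lif, Il19 and Il24 was not tested.

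**Figure D5:**
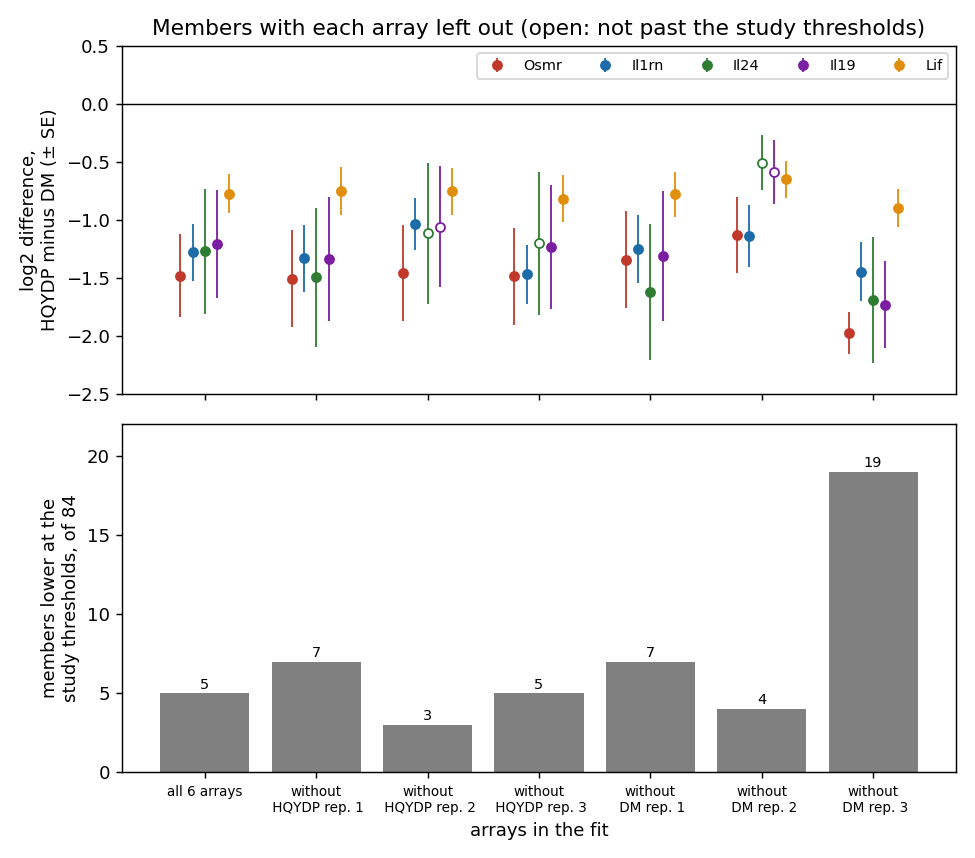
Log2 difference ± standard error of the 5 members with all 6 arrays and with each array left out (upper panel, open points did not pass the study thresholds), and the number of the 84 members lower at those thresholds (lower panel). Osmr, Il1rn and Lif stay filled throughout, Il19 and Il24 do not, and the count runs from 3 to 19.

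The number of lower members depended on which arrays were in the fit. It was 7, 3 and 5 without HQYDP replicates 1, 2 and 3, and 7 without DM replicate 1. No member was higher in any of these fits. Of all genes, 678, 535 and 716 passed in either direction without HQYDP replicates 1, 2 and 3, and 666 without DM replicate 1. With every array kept, 596 of all genes passed in either direction. Without DM replicate 3, the DM array nearest to the HQYDP arrays, 19 of 84 members were lower and none was higher, beside 4.02% and 2.09% of all genes. Besides the 5, these were Csf1, Csf3r, Il17re, Il18r1, Il18rap, Il1b, Il1r1, Il23r, Il2rg, Il34, Il6r, Il6st, Il7 and Il7r. In that fit Osmr had -1.98 (adjusted p = 0.0042 from limma) and Il1rn had -1.45 (adjusted p = 0.0432 from limma), the only members with an adjusted p under 0.05. Over all genes that fit gave 151 with an adjusted p under 0.05, beside 3 with every array kept. Because the array left out is the DM array nearest to the HQYDP arrays, its removal by itself favours small p-values. The adjusted p-values of Osmr and Il1rn in that fit are therefore no evidence beyond the fit to every array. Without DM replicate 2, 4 members were lower, namely Il1rn, Lif, Osmr and Il20ra, and none was higher, beside 1.21% and 1.57% of all genes.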

How the data were processed

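Kidney RNA was hybridized to Affymetrix Rat Gene 2.0 ST arrays, 3 for HQYDP and 3 for DM. The authors deposited log2 values per transcript, taken here to be normalized between arrays. How they were normalized, and with which software, is not stated in the sources used, and the log base was inferred from the range. Of 36685 rows, 18511 carried 1 gene symbol in the platform annotation, 575 several and 17599 none. Of several rows for a gene, the one with the highest mean was used. All 84 members matched the GRCr8 RefSeq table by Entrez ID, with 0 symbols changed. Dim genes were kept. limma 3.58.1 (R 4.3.3) was fitted to the 2 groups without covariates, and p-values were adjusted by Benjamini-Hochberg over 18166 genes. The fit was tested on simulated data with independent genes and equal spread in both groups. That simulation did not cover a wider spread in DM than in HQYDP, as in Osmr. Named genes were the members past the study thresholds, Il1rn and Lif, up to 2 further members per role group with the largest differences, partners of the lower members and up to 5 called genes per pathway list. The other members and pathway or marker genes were named after their values were seen. Members and lists were chosen with earlier results of these data known. The labels name each array as a rat's kidney without tying replicate numbers to litters or batches. The number of arrays limits the precision. Alternatives were other tests, normalizations, filters, row and fold rules, a replicate block and each array left out.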

Additional observations from a re-analysis of the deposited data

How the results depend on the processing

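Lower members numbered 3 with the methods' t-test, 2 with Welch's test and 2 of the 24 left by the filter at the olfactory receptor percentile (Il19 stays above it only through DM), 12 with no fold rule (and 2 higher), and 3 to 19 when 1 array was left out, but 5 or 6 with the trend, array weights, quantile normalization, median centring and mean of rows. All genes past the study thresholds numbered 596, with 278 by the t-test, 200 by Welch's test, 1340 with no fold rule, 123 at 2-fold and 504 to 1109 with 1 array left out. Genes with an adjusted p under 0.05 numbered 3, with 0 by either of those tests, 8 with the trend, 16 with array weights, 11 and 9 with the filters at the olfactory and the 25th percentile, and 0 to 151 with 1 array left out. Pathway genes past the thresholds numbered 15, with 6 by the t-test, 4 by Welch's test, 27 with no fold rule and 10 to 28 with 1 array left out. The median of the members stayed between -0.20 and -0.10. Osmr did not pass with Welch's test. Lower genes in the IL-6 family target list fell from 10 to 4 with the t-test and 3 with Welch's test, and lower macrophage markers from 7 to 0 with either. Differences of some uncalled genes changed sign, most of them near 0, but also Il7r, Il6, Il1rl1 and Casp1. With array weights they became Csf2 0.014, Il13ra2 0.019, Il36a -0.033, Il4 0.076 and Il9 -0.048, and after quantile normalization Hp -0.017, Il12b -0.019 and Il1a -0.040. With 1 array left out the differences ranged from -0.70 to 0.12 for Casp1, -0.24 to 0.12 for Csf2, -0.24 to 0.022 for Csf2rb, -0.19 to 0.15 for Hp, -0.16 to 0.0098 for Il10, -0.27 to 0.27 for Il10rb, -0.16 to 0.069 for Il12a, -0.17 to 0.21 for Il12b, -0.17 to 0.17 for Il13, -0.11 to 0.064 for Il13ra2, -0.033 to 0.26 for Il17b, -0.12 to 0.029 for Il17rc, -0.46 to 0.089 for Il18, -0.22 to 0.078 for Il18bp, -0.13 to 0.11 for Il1a, -0.017 to 0.19 for Il1r2, -0.021 to 0.12 for Il1rapl1, -0.69 to 0.084 for Il1rl1, -0.22 to 0.12 for Il20rb, -0.12 to 0.18 for Il22, -0.31 to 0.072 for Il22ra1, -0.30 to 0.045 for Il25, -0.12 to 0.31 for Il3, -0.037 to 0.20 for Il36a, -0.18 to 0.0065 for Il36b, -0.15 to 0.13 for Il4, -0.32 to 0.25 for Il5, -0.78 to 0.010 for Il6, -1.26 to 0.22 for Il7r, -0.076 to 0.11 for Il9, -0.092 to 0.13 for Il9r, -0.23 to 0.059 for Osm and -0.43 to 0.041 for Socs1. The cause of these shifts was not tested beyond the arrays named. Same-numbered arrays did not deviate together, with correlations of 0.14, -0.08 and 0.21, and the replicate block gave 5 lower members, 661 genes past the thresholds, 2 with an adjusted p under 0.05 and 18 pathway genes. Signals of most members lay below that of the brighter olfactory receptors, which limits what their differences can show.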
